A study of Mus musculus with 8 samples.

Results

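Colon was compared with small intestine in mouse tissue without tumours. The comparison used 4 of the 8 arrays of the study, chosen by their tissue and genotype labels: colon and small intestine of C57BL/6 wild-type (WT) mice, and colon and small intestine of ACKR2-/- mice on the same strain. All 4 groups came from mice aged 110 days that did not carry the ApcMin allele. ACKR2, also called D6, is an atypical chemokine receptor that takes up inflammatory CC chemokines without signalling like a classical receptor. By label, both tissues of the ACKR2-/- pair lacked it and both tissues of the WT pair carried it. RNA was pooled within a genotype, and the number of animals in a pool was not given in the sources used here. Each group was 1 array of 1 pool (n = 1), with no replicates. The other 4 arrays, colon and ileal tumours of ApcMin/+ and ACKR2-/-ApcMin/+ mice of the same age, entered the model and the closing comparison. The labels named the ileum for the tumours but gave no segment for the small intestine without tumours. They also did not say whether whole wall or mucosa was taken, or which part of the colon.

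The small intestine and the colon are lined by a single layer of epithelium that is renewed from stem cells in crypts. In the small intestine, villi carry enterocytes whose brush border splits sugars and peptides and takes up nutrients, bile acids and vitamins, and Paneth cells at the crypt base release antimicrobial proteins. The colon has no villi. It absorbs salt and water through sodium channels and chloride exchangers, uses short-chain fatty acids made by bacteria, and is covered by thick mucus. The posterior identity of the hindgut is laid down in development by Hox genes and Cdx factors and is kept in the adult, whereas GATA and HNF4 factors are known for driving genes of the small intestine.

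The deposited signals were linear. Values under 64.1, a floor set from the arrays themselves as the median of their 40th percentiles, were set to the floor before log2 was taken, so a difference from a value at the floor is a lower limit. Signals below are given as deposited, always with the WT array before the ACKR2-/- array, and differences are colon minus small intestine on the log2 scale after the floor. A fold given as "at least" is the smaller of the folds of both pairs. Each gene is represented by 1 probe set, and signals of different genes are not compared with each other. A single pair of arrays allows no test. The test was a limma model over all 8 arrays with 2 residual degrees of freedom, so its errors come from how unlike the genotype difference was in colon and in small intestine. That spread holds differences between pools and arrays as well as any effect of ACKR2, and it does not measure how animals differ. Where an error follows a mean difference, it is the standard error from this model, and a call means an adjusted p (Benjamini-Hochberg, over all genes tested) under 0.05. A gene described as higher or lower without that test was at least 2-fold apart the same way in both genotypes.

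The tissue labels were checked by marker genes. Of the small-intestinal markers Lct, Apoa1, Apoa4, Fabp1, Fabp2, Alpi and Lyz1 and the ileal markers Fabp6, Slc10a2 and Fgf15, each was at least 2-fold lower in colon in both pairs, and of the colonic markers Aqp8, Scnn1b, Scnn1g, Slc26a3, Hoxb13, Hoxd13 and Best2, each was at least 2-fold higher. Car4 passed 2-fold in the WT pair alone, and Car1 was discordant, as described with the transport genes. Sis was not analysed here. Ackr2 itself had signals of 116 and 153 in colon and 107 and 71.3 in small intestine, near the floor in WT tissue too, so it does not check the genotype. The median signal was 133.1 and 118.2 in WT colon and WT small intestine and 86.1 and 85.5 in the ACKR2-/- arrays. The X-inactivation RNA Xist (9809 and 4522 in colon, 7807 and 2818 in small intestine) and the Y-linked Eif2s3y (2.92 and 897 in colon, 2.66 and 919 in small intestine) differed more between the genotypes than between the tissues of a pair.

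Of 14027 genes tested, 988 were at least 2-fold higher in colon in both genotypes (7.04%) and 690 at least 2-fold lower (4.92%). The WT pair alone gave 1348 higher (9.61%) and 915 lower (6.52%), and the ACKR2-/- pair 1809 higher (12.9%) and 1038 lower (7.4%). The shared genes were 73.3% of the genes higher in the WT pair and 54.6% of those higher in the ACKR2-/- pair, and 75.4% and 66.5% of those lower. Only 7 genes were at least 2-fold apart in opposite directions (0.0499%). Differences of at least 8-fold in both pairs were more frequent on the small-intestinal side, with 142 genes lower and 80 higher. Of the shared genes, 116 of the 690 lower ones were at the floor in both colon arrays and 132 of the 988 higher ones were at the floor in both small-intestinal arrays, so their differences are lower limits. In the limma model, 1811 genes were higher in colon (12.9%) and 1176 lower (8.38%), and 947 (6.75%) and 669 (4.77%) genes met both the fold and the test. The median difference over all genes tested was 0.11. Counts given for gene lists below are to be read beside these shares, 7.04% and 4.92% for the fold and 12.9% and 8.38% for the test. With arrays centred on their medians the test gave 1301 higher and 1261 lower genes, or 50.8% higher in place of 60.6%. With no filter on low signals, 161 genes were called higher and 101 lower. Without the 4 tumour arrays 23 genes were called higher and 45 lower, and leaving out WT colon, ACKR2-/- colon, WT small intestine or ACKR2-/- small intestine left 0 calls in limma, with 2295 to 2745 genes at an unadjusted p under 0.05.

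**Figure D1:**
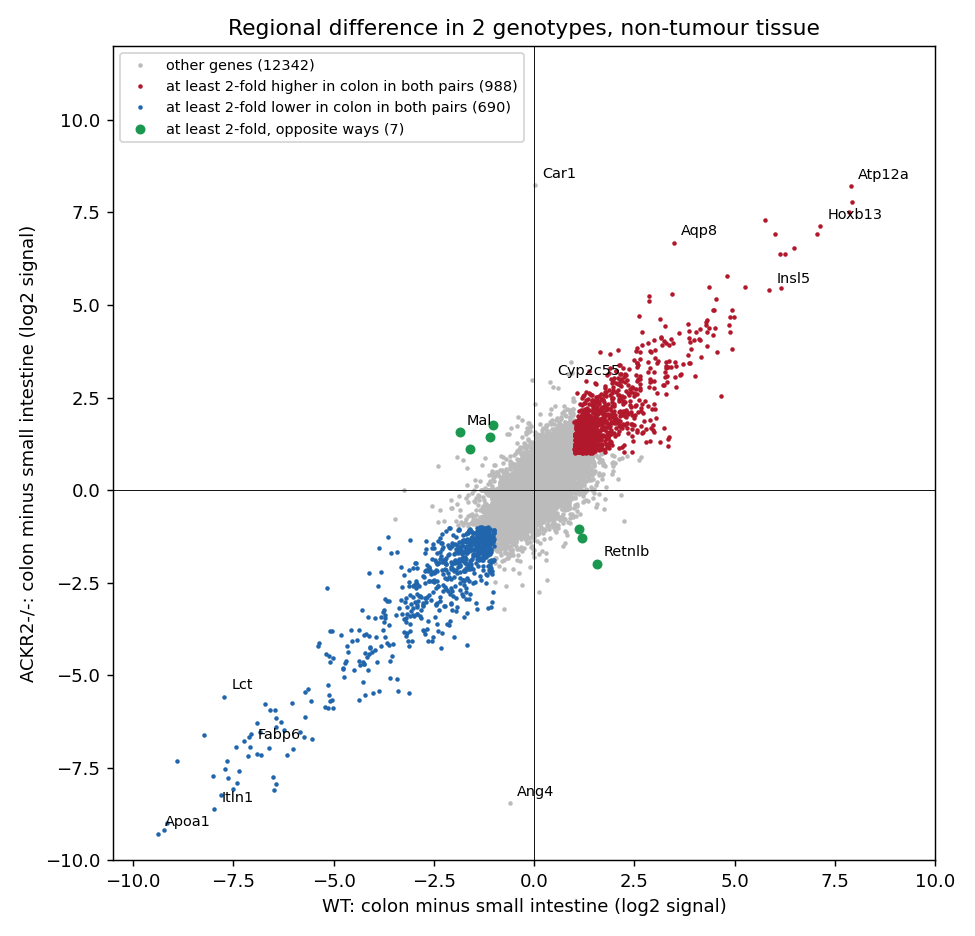
Each point is 1 of 14027 genes, placed by its colon minus small intestine difference (log2 signal) in the WT pair (x axis) and in the ACKR2-/- pair (y axis). The 988 genes at least 2-fold higher in colon in both pairs and the 690 at least 2-fold lower lie along the diagonal, while 7 genes fall in the opposite corners and Car1 and Ang4 lie far from the diagonal.

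The genes with the largest shared differences were absorptive and antimicrobial genes of the small intestine on one side and a proton pump, posterior Hox genes and secreted proteins of the colon on the other. Apoa1, which encodes the main protein of high-density lipoprotein, had signals of 43027 and 39853 in small intestine and 8.43 and 3.47 in colon. The antimicrobial lectin Reg3b had 38215 and 37497 in small intestine and 53.5 and 39.4 in colon, and its close relative Reg3g 36322 and 32826 in small intestine and 5.24 and 5.43 in colon. In all 3 cases both small-intestinal arrays were high, both colon arrays were under the floor, and the tissues did not overlap. The differences were at least 621-fold for Apoa1, 585-fold for Reg3b and 512-fold for Reg3g, each with a limma adjusted p of 2.65e-05 or less. Because Reg3b and Reg3g are closely related paralogs, their probe sets may share signal. Next in order were the lectin gene Itln1 and Prap1, which encodes an acidic secreted protein of the gut, then Apoa4, Mttp, Slc6a19, Slc51a, Cyp3a11, the crypt gene Olfm4, the defensin gene Defa39, the cholesterol transporter gene Npc1l1, the prodefensin-cutting protease gene Mmp7 and the chemokine gene Ccl25, with differences from at least 123-fold for Ccl25 to at least 252-fold for Itln1.

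On the colonic side, the highest rank belonged to Atp12a, the catalytic subunit of the non-gastric proton-potassium pump. Its signals were 15217 and 19128 in colon and 24.2 and 9.71 in small intestine, where both arrays were under the floor, a difference of at least 237-fold (mean 8.06 ± 0.26, limma adjusted p = 4.36e-05). Sycn, which encodes syncollin, a protein of secretory granules, had 23374 and 19331 in colon and 96.2 and 87.5 in small intestine. Tgm3, which encodes a protein-crosslinking transglutaminase, had 20524 and 11743 in colon and 88.4 and 57.2 in small intestine. Neither gene overlapped between tissues, and the differences were at least 221-fold and 183-fold. Fxyd4, a regulator of the sodium-potassium pump, had 9654 and 11896 in colon and 72.4 and 97.8 in small intestine (at least 122-fold), and Wfdc2, an antiprotease of mucosal surfaces, 10006 and 7718 in colon and 157 and 63.0 in small intestine (at least 63.6-fold). Thbs4, a matrix thrombospondin, had 5676 and 5978 in colon and 22.6 and 8.86 in small intestine, and Tnni1, the slow skeletal muscle form of troponin I, 4501 and 5352 in colon and 8.12 and 17.4 in small intestine. For both, each small-intestinal array was under the floor. The remaining leaders were Hoxb13, Hoxd13, the annexin gene Anxa8, Sval1, the hormone gene Insl5, Nxpe4 and the paralogs Cyp2d12 and Cyp2d34, whose probe sets may share signal.

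To show matches to motifs of GATA and HNF4 factors, the 120 bases before the annotated start are printed for 5 genes that were lower in colon and 1 that was higher. All the printed stretches hold a match, so they are not typical. In the longer windows counted below, 11.3% of those of genes lower in colon held the GATA motif and 7.77% the HNF4 motif. Sequences are from RefSeq on the mouse build GRCm38.p6, written 5′ to 3′ on the gene's strand. Capitals mark matches to short motifs. The motif AGATAA is known for GATA factors, and it reads TTATCT where the match lies on the other strand. The motif CAAAGTC is known for HNF4 factors, and on the other strand it reads GACTTTG in the same way.
Prap1: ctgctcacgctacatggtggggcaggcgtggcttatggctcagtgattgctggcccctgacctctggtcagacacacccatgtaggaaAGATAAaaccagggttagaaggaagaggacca
Fabp6: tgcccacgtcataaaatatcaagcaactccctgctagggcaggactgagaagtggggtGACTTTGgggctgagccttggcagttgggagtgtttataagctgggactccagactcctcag
Slc51a: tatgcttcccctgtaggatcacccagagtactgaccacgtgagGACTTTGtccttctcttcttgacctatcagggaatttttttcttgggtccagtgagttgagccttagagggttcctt
Alpi: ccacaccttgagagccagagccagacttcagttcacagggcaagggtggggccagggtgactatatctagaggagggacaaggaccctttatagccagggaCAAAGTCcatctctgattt
Abcg8: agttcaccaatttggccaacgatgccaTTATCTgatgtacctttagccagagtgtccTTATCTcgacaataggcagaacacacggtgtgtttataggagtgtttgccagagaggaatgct
Insl5: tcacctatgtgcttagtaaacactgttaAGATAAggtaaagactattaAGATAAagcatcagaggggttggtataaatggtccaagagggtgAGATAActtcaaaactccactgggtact
The stretches lie at chr7:140093276-140093395 on the plus strand for Prap1, chr11:43601563-43601682 on the minus strand for Fabp6, chr16:32487880-32487999 on the minus strand for Slc51a, chr1:87101607-87101726 on the minus strand for Alpi, chr17:84683001-84683120 on the plus strand for Abcg8 and chr4:103026729-103026848 on the minus strand for Insl5. Counted back from the start of the gene, the GATA letters begin at -32 in Prap1, at -93 and -63 in Abcg8 and at -92, -72 and -28 in Insl5, and the HNF4 letters at -62 in Fabp6, -77 in Slc51a and -19 in Alpi. The Abcg8 stretch lies within the promoter window of Abcg5, which is read from the opposite strand.

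Windows from 250 bases before to 50 after each start were searched on both strands for the GATA motif and the HNF4 motif given above, and also for TTTATGG as a motif known for CDX factors. No motif contains another, although matches may overlap. AGATAA occurred in 11.2% of all 32851 windows in the table, in 7.06% of 14327 windows of genes tested here, in 6.49% of 971 windows of genes at least 2-fold higher in colon in both pairs and in 11.3% of 682 windows of genes at least 2-fold lower. CAAAGTC occurred in 4.44%, 4.22%, 4.02% and 7.77% of the same sets, and TTTATGG in 2.75%, 1.9%, 2.47% and 2.93%. The shares of the GATA and HNF4 letters were thus larger in the windows of genes lower in colon (77 and 53 of 682) than in those of genes higher in colon (63 and 39 of 971). These are counts of letters without a test. A match is not a binding site, and Insl5 shows that the GATA letters also stand before a gene that was higher in colon.

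Genes of digestion at the brush border were lower in colon as a group. All 13 measured members of 18 listed were at least 2-fold lower in colon in both pairs, where the share over all genes was 4.92%, and 12 were called lower by limma, beside 8.38%. Their median difference was -4.78, beside 0.11 over all genes. Lactase, the product of Lct, splits milk sugar: its gene had signals of 13572 and 5084 in small intestine and 34.0 and 106 in colon. The aminopeptidase gene Anpep had 35166 and 18906 in small intestine and 392 and 68.9 in colon, and Alpi, the intestinal alkaline phosphatase, 14776 and 9348 in small intestine and 110.5 and 97.7 in colon. All small-intestinal arrays exceeded all colon arrays for these 3 genes, with mean differences of -6.65 ± 0.77 for Lct, -7.29 ± 0.41 for Anpep and -6.82 ± 0.53 for Alpi (limma adjusted p = 0.00346, 0.000255 and 0.000886). The trehalase gene Treh was under the floor in colon (13.02 and 20.2) and at 2698 and 1183 in small intestine. At the weak end, Mep1a, which encodes a meprin protease, had 5669 and 8393 in colon and 12232 and 20172 in small intestine. Its mean difference of -1.19 ± 0.34 did not pass the test (adjusted p = 0.0557).

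**Figure D2:**
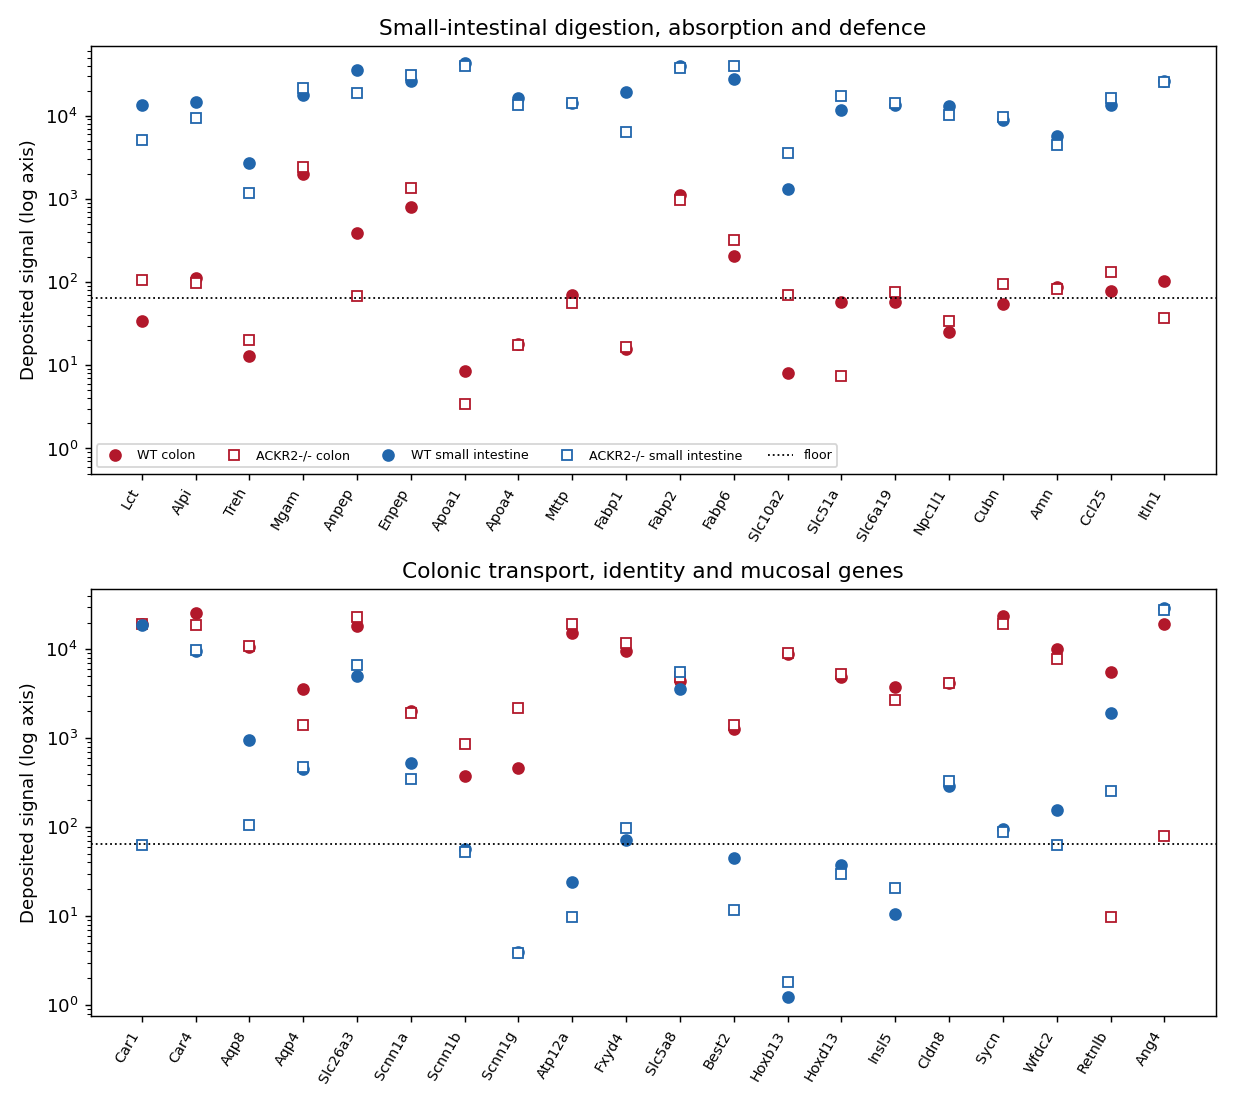
Deposited signal (log axis) in each of the 4 arrays without tumours, with 1 point per array and the floor of 64.1 as a dotted line. The upper panel holds 20 small-intestinal genes. The lower panel holds 20 genes, colonic genes together with the Paneth cell gene Ang4, which was at least 2-fold lower in colon in the ACKR2-/- pair alone. In the upper panel all small-intestinal points lie above the colon points; in the lower panel Car1 has 1 small-intestinal array at the colon level, and Ang4 and Retnlb have 1 colon array far below the other.

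Genes of fat absorption and lipoprotein assembly were lower in colon for 15 of 19 members, with a median of -4.48, and limma called 15 lower and 1 higher. Mttp, the transfer protein that loads lipid onto apolipoprotein B, had 14067 and 14097 in small intestine and 70.8 and 56.4 in colon. Npc1l1, the transporter that takes cholesterol from the lumen, had 12901 and 10183 in small intestine and 25.1 and 33.9 in colon. Both were low in both colon arrays and did not overlap, with differences of at least 199-fold and 159-fold. Fabp2, an intestinal fatty acid binding protein, was lower in colon but clearly above the floor there, at 1117 and 977 against 39165 and 37782 in small intestine (mean -5.20 ± 0.57, limma adjusted p = 0.00293). The sterol exporter genes Abcg5 and Abcg8, which share a promoter region, had mean differences of -3.19 ± 0.17 and -2.01 ± 0.26. The exception was Scarb1, the scavenger receptor for high-density lipoprotein and the gene of this list called higher in colon, with 687 and 425 in colon and 348 and 93.5 in small intestine (mean 1.58 ± 0.33, adjusted p = 0.0228). Scarb1 fell just short of 2-fold in the WT pair and is named here after its values were seen.

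The uptake of bile acids and vitamin B12 is a task of the ileum. Of 10 genes, 9 were at least 2-fold lower in colon in both pairs and called lower by limma. Bile acids enter through the transporter Slc10a2, are bound inside the cell by Fabp6 and leave through the heterodimer of Slc51a and Slc51b. Slc10a2 had signals of 1322 and 3592 in small intestine and 8.12 and 70.7 in colon. Fabp6 had 27968 and 39468 in small intestine and 207 and 324 in colon, and Slc51a 11596 and 17246 in small intestine and 58.2 and 7.33 in colon. The small-intestinal arrays were high for all 3 genes and did not overlap with colon. The mean differences were -5.02 ± 0.38 for Slc10a2, -7.00 ± 0.20 for Fabp6 and -7.78 ± 0.29 for Slc51a. Slc51b differed by -4.74, Cubn and Amn, which together form the receptor for vitamin B12 bound to intrinsic factor, by -6.89 and -5.89, and the hormone gene Fgf15, which signals bile acid uptake to the liver, by -2.09. Nr0b2 had 15.6 and 82.8 in colon and 119 and 27.6 in small intestine and was the member that did not pass (adjusted p = 0.684).

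The small-intestinal arrays held ileal and proximal markers together, and single markers differed between the genotypes. Summed signals of the ileal list were 71533 in WT and 99641 in ACKR2-/- small intestine, and those of the proximal list were 45340 and 25136. Fabp6 and Slc51a made up most of the former sums, and Lct and Fabp1 carried the difference in the latter. The WT array was the higher of both for 7 of 9 proximal genes, all but Ada and Slc40a1, and for 3 of 10 ileal genes, Amn, Fgf15 and Nr0b2. Fabp1, the liver-type fatty acid binding protein, had 19396 and 6327 in small intestine and 15.9 and 16.4 in colon, and Gata4, a transcription factor of the proximal gut, 866 and 271 in small intestine and 86.9 and 47.5 in colon. The WT array was the higher for both genes, whereas for Slc10a2 and Fabp6 the ACKR2-/- array was the higher. In both genotypes the tissues did not overlap for these 4 genes. Whether the pools came from different stretches of the intestine was not tested, and with 1 array per group it cannot be told apart from an effect of the genotype. Of the 9 proximal genes measured, 6 were lower in colon and 1 was higher: Slc40a1, the iron exporter ferroportin, with 7821 and 8655 in colon and 1589 and 2515 in small intestine (mean 2.04 ± 0.23, limma adjusted p = 0.00328).

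Solute carriers for sugars, amino acids and ions followed the same direction. Of 21 measured, 18 were lower in colon in both pairs, 1 was higher, and limma called 19 lower and 1 higher, with a median of -3.30. Slc6a19, the main carrier of neutral amino acids, had 13306 and 14148 in small intestine and 57.8 and 76.9 in colon. Slc2a2, a glucose and fructose carrier, had 2966 and 6804 in small intestine and 14.7 and 20.1 in colon, and the sulfate carrier Slc13a1 5524 and 15842 in small intestine and 25.6 and 22.9 in colon. The colon arrays lay near or under the floor for all 3 genes, and the differences were at least 184-fold, 46.2-fold and 86.1-fold. Slc3a1, the partner of the cystine carrier, and Slc26a6, an anion exchanger, had mean differences of -6.98 ± 0.37 and -6.49 ± 0.43. Slc46a1, the proton-coupled folate carrier, went the other way, with 1225 and 1783 in colon and 396 and 135 in small intestine (mean 2.67 ± 0.58, adjusted p = 0.0257). Slc11a2, an importer of iron, had 525 and 570.4 in colon and 604 and 503 in small intestine, and its values overlapped between tissues.

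Ion, water and butyrate transport genes of the colon were higher in colon for 13 of 24 measured members and lower for 0, beside 7.04% and 4.92% over all genes. Limma called 12 higher, and the median was 1.52. The aldosterone-regulated sodium channel was higher in all its subunits: Scnn1a had 2042 and 1926 in colon and 529 and 351 in small intestine. Scnn1b had 374 and 859.8 in colon and 56.6 and 52.1 in small intestine, and Scnn1g 467 and 2208 in colon and 3.96 and 3.8 in small intestine. Both colon arrays exceeded both small-intestinal arrays for each subunit, and for Scnn1b and Scnn1g the small-intestinal arrays were under the floor. The differences were 2.20 ± 0.24, 3.14 ± 0.33 and 3.98 ± 0.52 (limma adjusted p = 0.00268, 0.0025 and 0.00482). Scnn1b and Scnn1g had higher signals in ACKR2-/- than in WT colon. The receptor through which aldosterone acts, Nr3c2, and Hsd11b2, the enzyme that keeps cortisol-like steroids off it, were also higher, by 1.28 ± 0.22 and 2.79 ± 0.22.

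Water channels and anion carriers were part of the same pattern. Aqp8 had 10641 and 10805 in colon and 958 and 105 in small intestine, so the colon arrays were alike and the small-intestinal arrays differed widely from each other (mean 5.08 ± 0.72, limma adjusted p = 0.00659). Aqp4 had 3572 and 1413 in colon and 454 and 473 in small intestine (mean 2.28 ± 0.33). The bestrophin gene Best2, an anion channel of colonic goblet cells, had 1255 and 1401 in colon and 45.5 and 11.7 in small intestine, where it was under the floor, a difference of at least 19.6-fold. Slc26a3, the chloride-bicarbonate exchanger, had 18402 and 23172 in colon and 4981 and 6718 in small intestine. It was at least 3.45-fold higher in both pairs without overlap, but its mean of 1.84 ± 0.56 missed the test (adjusted p = 0.0664). Slc16a1, which carries butyrate and lactate, differed by 1.60 ± 0.20, and Kcne3, a potassium channel subunit, by 1.44 ± 0.19. Not all transport genes separated the tissues: Slc5a8, a sodium-coupled carrier of short-chain fatty acids, had 4412 and 4823 in colon and 3589 and 5573 in small intestine, and the chloride channel gene Cftr 1781 and 1307 in colon and 1569 and 1563 in small intestine. For both, the 4 arrays overlapped.

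Car1 and Car4 encode carbonic anhydrases, which make bicarbonate and protons from carbon dioxide. Car4 had 25444 and 18909 in colon and 9661 and 9812 in small intestine. Its colon arrays exceeded its small-intestinal arrays, but it passed 2-fold in the WT pair alone. The mean of 1.17 ± 0.48 did not pass (limma adjusted p = 0.142). Car1 had 19162 and 19254 in colon but 18864 and 62.6 in small intestine: the WT small-intestinal array stood at the level of colon, while the ACKR2-/- one was under the floor. The differences of the pairs were 0.02 and 8.23, and the mean did not pass the test (adjusted p = 0.14). In the ileal tumours Car1 had 42.3 and 114. Of the guanylin system, 2 of 3 genes were lower in colon. Guca2b, the gene of uroguanylin, a peptide that draws salt and water into the lumen, had 15750 and 19978 in small intestine and 333 and 383 in colon (mean -5.63 ± 0.21, limma adjusted p = 7.80e-05). Its receptor gene Gucy2c differed by -1.23 ± 0.32. Guanylin, from Guca2a, had 12465 and 11178 in colon and 16330 and 21242 in small intestine and did not pass (adjusted p = 0.209).

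Transcription factors of regional identity split between the tissues, with 3 of 26 at least 2-fold higher in colon, 12 lower, and 4 and 12 called by limma. The lower ones included the GATA factors Gata4 and Gata5, the HNF4 family member Hnf4g and Isx, a repressor that limits vitamin A uptake. Isx had 3007 and 3731 in small intestine and 80.6 and 6.15 in colon, and Gata5 874 and 873 in small intestine and 22.9 and 47.5 in colon. Both lay under or near the floor in both colon arrays, with differences of at least 37.3-fold and 13.6-fold. Hnf4g had 1470 and 2881 in small intestine and 196 and 284 in colon (mean -3.12 ± 0.25), whereas Hnf4a, its relative, had 11874 and 12039 in small intestine and 12923 and 9542 in colon and overlapped between tissues (adjusted p = 0.811). Maf, Tbx3, Osr2 and Creb3l3 were lower in colon, with mean differences of -3.34, -3.64, -4.36 and -3.32. Those higher in colon were the forkhead factors Foxa1 and Foxa2 and the nuclear receptor Pparg, with 1.32 ± 0.16, 2.55 ± 0.24 and 1.87 ± 0.33. Foxa2 had 1761 and 1024 in colon and 248 and 212 in small intestine.

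The caudal factors Cdx1 and Cdx2 specify intestine as a whole. Cdx2 had 6639 and 2494 in small intestine and 1725 and 261 in colon, without overlap between tissues, although the lower small-intestinal array and the higher colon array, 2494 and 1725, stood near each other. Within each genotype Cdx2 was lower in colon, by -1.94 and -3.26 (mean -2.60 ± 0.47, limma adjusted p = 0.0138). Cdx1 had 4211 and 2692 in colon and 2534 and 1608 in small intestine, with differences of 0.73 and 0.74 that did not pass (adjusted p = 0.0908).

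Hox genes are arranged in clusters a to d and numbered by paralog group, and higher groups mark more posterior positions along the body. Of 24 measured genes, 9 were at least 2-fold higher in colon in both pairs and 4 lower, with 10 and 6 called by limma. All genes higher in colon by 2-fold were of groups 9 to 13, and all genes lower were of groups 5 to 8. Hoxb13 had 8943 and 9039 in colon and 1.23 and 1.83 in small intestine, and Hoxd13 4869 and 5311 in colon and 37.3 and 29.9 in small intestine. Both colon arrays were high and both small-intestinal arrays were under the floor, with differences of at least 139-fold and 75.9-fold. Hoxa9, Hoxd10, Hoxa10, Hoxd11, Hoxa13, Hoxa11 and Hoxd9 were higher by means from 1.74 for Hoxd9 to 4.78 for Hoxa9. Hoxb9 had 681 and 336 in colon and 416 and 524 in small intestine and overlapped between tissues.

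The genes at least 2-fold lower in colon were Hoxc8, Hoxb6, Hoxc6 and Hoxa5. Hoxc8 had 485 and 449 in small intestine and 18.1 and 11.2 in colon, where both arrays were under the floor, and Hoxb6 had 597 and 390.1 in small intestine and 144 and 96.9 in colon. The tissues did not overlap for these genes, and the means were -2.86 ± 0.40 and -2.03 ± 0.30 (limma adjusted p = 0.00639 and 0.00753). Hoxc6 and Hoxa5 were lower in colon, with mean differences of -1.65 ± 0.24 and -1.35 ± 0.24. With the mean of all its probe sets Hoxa5 turned to 0.42 ± 0.18 (adjusted p = 0.171), so its direction depends on the probe set. Hoxd8 of the same group as Hoxc8 was slightly higher in colon, with 185 and 172 in colon and 97.5 and 93.9 in small intestine (mean 0.90 ± 0.20, adjusted p = 0.0288), and is named after its values were seen. Hoxc4 and Hoxb5 were called lower, with mean differences of -1.35 ± 0.35 and -0.88 ± 0.24 without reaching 2-fold in both pairs. Hoxa7 ran against its neighbours, with 295 and 118 in colon and 14.9 and 9.79 in small intestine, both under the floor there, although its mean of 1.54 ± 0.53 did not pass (adjusted p = 0.0938). Hoxa2, Hoxb2 and Hoxb4, from the anterior end of their clusters, had mean differences of 0.31, -0.31 and -0.06, none of which passed. By cluster, the genes higher in colon came from clusters a, b and d, and those lower from a, b and c.

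**Figure D3:**
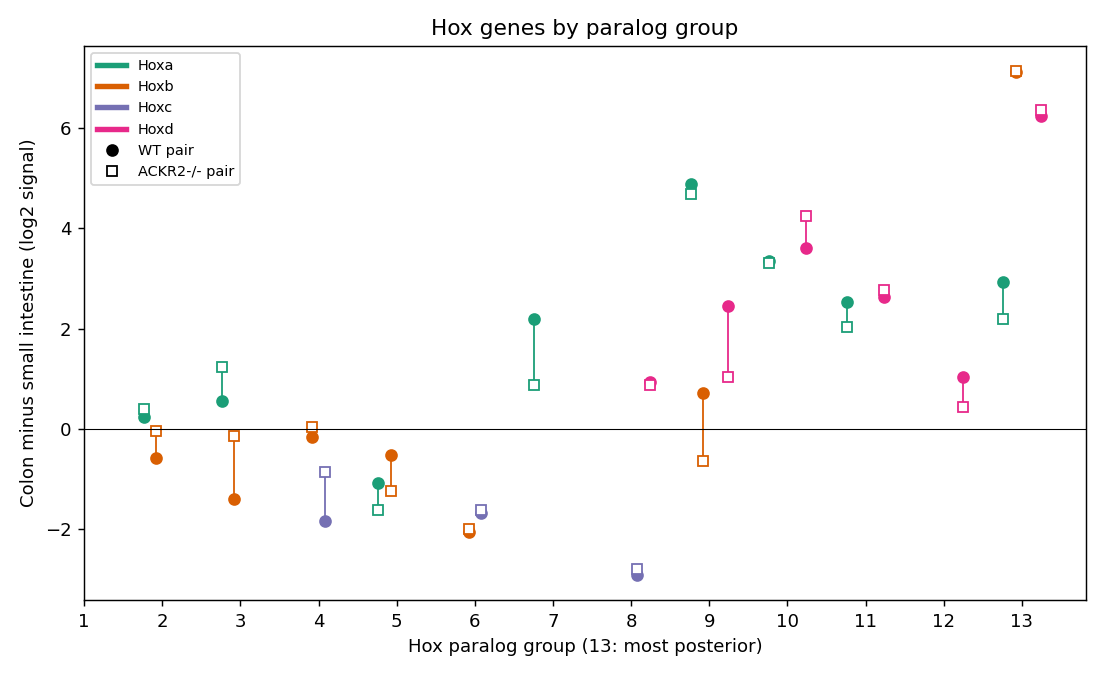
Colon minus small intestine difference (log2 signal) of each measured Hox gene by paralog group, with a filled circle for the WT pair, an open square for the ACKR2-/- pair, a line joining both and colour for the cluster. Genes of groups 9 to 13 lie above or near 0, up to 7.13 for Hoxb13 as a mean, and those of groups 5 to 8 lie below 0, down to -2.86 for Hoxc8, except Hoxa7 and Hoxd8.

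Secretory cells of the epithelium differed by type. Genes of goblet cells, which make mucus, showed 4 of 24 genes higher in colon and 1 lower, beside 7.04% and 4.92% over all genes, and 1 opposite in both pairs. Muc2, the main gel-forming mucin, had 28886 and 16870 in colon and 30635 and 30158 in small intestine. The mucus protease gene Clca1 had 31032 and 17851 in colon and 18733 and 24698 in small intestine, and Zg16, a lectin of the mucus, 38256 and 23684 in colon and 34704 and 32821 in small intestine. The lowest of the 4 arrays was ACKR2-/- colon in Muc2, Clca1 and Zg16, and none of these passed the test (adjusted p = 0.276, 0.88 and 0.684). Nxpe2, Muc1, Klk1 and Reg4 were the genes higher in colon. Klk1, a kallikrein protease, had 26022 and 21558 in colon and 3958 and 7199 in small intestine, and Reg4, a lectin of the Reg family, 13818 and 10140 in colon and 6360 and 4718 in small intestine. Their means were 2.15 ± 0.38 and 1.11 ± 0.17 (limma adjusted p = 0.0128 and 0.0077). The sign of the median of this list depended on the processing, so no direction is given for the list.

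Paneth cell genes were lower in colon for 5 of 7 measured members, and limma called 6 lower. Lyz1, the Paneth cell lysozyme, had 35722 and 33069 in small intestine and 6430 and 7141 in colon, well above the floor in colon. Mmp7 had 8936 and 9354 in small intestine and 17.8 and 49.5 in colon, and Itln1, a lectin that binds bacterial sugars, 26323 and 25232 in small intestine and 104 and 36.7 in colon. The tissues did not overlap for any of the 3 genes, with differences of at least 4.63-fold, 139-fold and 252-fold. Ang4, an antimicrobial ribonuclease, had 29032 and 27414 in small intestine but 19086 and 78.5 in colon: WT colon stood near small intestine and ACKR2-/- colon just above the floor. Other antimicrobial genes behaved unevenly, with 8 of 18 at least 2-fold lower in colon and 0 higher. Reg3a, the phospholipase gene Pla2g2a and Nos2, the inducible nitric oxide synthase, were lower in colon, with mean differences of -6.21 ± 0.39, -3.67 ± 0.32 and -2.73 ± 0.52. Lypd8, which keeps bacteria off the colonic surface, had 42662 and 27564 in colon and 28921 and 34988 in small intestine and overlapped.

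Hormone genes of enteroendocrine cells divided by hormone, with 2 of 21 higher in colon and 5 lower, beside 7.04% and 4.92% over all genes. Insl5, an appetite-raising hormone of the hindgut, had 3716 and 2700 in colon and 10.6 and 20.7 in small intestine, at least 42.1-fold apart. Nts, which encodes neurotensin, had 3404 and 6538 in small intestine and 25.8 and 34.4 in colon, and Sct, secretin, 1413 and 2210 in small intestine and 245 and 142 in colon. The means were -6.20 ± 0.29 and -3.25 ± 0.39 (limma adjusted p = 0.000154 and 0.00377). Gip, Cck and Sst, the genes of an incretin, cholecystokinin and somatostatin, were lower in colon, with mean differences of -3.77, -1.95 and -1.69. Pyy, peptide YY, had 4428 and 2921 in colon and 1160 and 2157 in small intestine, and Gcg, the precursor of glucagon-like peptides, 932 and 643 in colon and 1545 and 1663 in small intestine. Neither passed (adjusted p = 0.0662 and 0.152), although both Pyy arrays of colon exceeded both of small intestine. General endocrine genes such as Chgb, at 2658 and 1859 in colon and 1986 and 2188 in small intestine, overlapped between tissues.

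Tuft cells are chemosensory cells of the epithelium. Their genes showed 1 of 15 higher in colon, near the share of 7.04% over all genes, and 2 lower, beside 4.92%. The higher one was Hpgds, the prostaglandin D synthase, by 2.03 ± 0.20. The lower ones were Plcg2, a signalling phospholipase, by -1.61 ± 0.34, and Rgs13, which did not pass the test at a limma adjusted p of 0.0925. Pou2f3, the factor that defines tuft cells, had 106 and 106 in colon and 99.8 and 106 in small intestine. Among stem cell and Wnt target genes, 3 of 19 were lower in colon and 0 higher, beside 4.92% and 7.04% over all genes. Olfm4, a marker of small-intestinal crypt base cells, had 10444 and 12389 in small intestine and 4.53 and 2.1 in colon, where both arrays were under the floor, at least 163-fold apart. Lgr5, the stem cell receptor, had 627 and 580.1 in small intestine and 296 and 135 in colon, and Axin2, a feedback inhibitor of Wnt signalling, 1810 and 575 in small intestine and 839.6 and 191 in colon. Within each genotype both were lower in colon, by means of -1.59 ± 0.27 and -1.35 ± 0.36 (limma adjusted p = 0.011 and 0.0444), while the Axin2 arrays overlapped across genotypes. Myc and Cd44 had mean differences of -0.02 and -0.17.

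Of 20 proliferation genes, 10 were called lower in colon by limma and 0 higher, where 8.38% of all genes were called lower. At least 2-fold lower in both pairs were 3, beside 4.92% of all genes, with a median of -0.73. Aurkb, Cdc20 and Rrm2, which act in mitosis and in making DNA building blocks, differed by -1.46 ± 0.22, -1.36 ± 0.17 and -1.26 ± 0.16, while Pcna, the clamp of the DNA polymerase, had 6028 and 7442 in colon and 6205 and 8175 in small intestine. Among tight junction genes, 1 of 19 was higher in colon and 1 lower, near the shares of 7.04% and 4.92% over all genes. These were 2 claudins of opposite sides. Cldn8, a sealing claudin, had 4152 and 4152 in colon and 289.5 and 329 in small intestine (mean 3.75 ± 0.20, limma adjusted p = 0.000214). Cldn15, which forms a channel for sodium, had 5750 and 5637 in small intestine and 762 and 557 in colon (mean -3.13 ± 0.43, adjusted p = 0.00602). Both separated the tissues in every array, whereas F11r, a junction adhesion molecule, had a mean difference of 0.03.

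Lymphocytes within the epithelium are a hallmark of the small intestine, and genes of T cells and these lymphocytes were lower in colon for 12 of 28 measured members and higher for 0. Limma called 16 lower, and the median was -0.86. In pieces of tissue, fewer cells of a type and less RNA per cell cannot be told apart. Granzyme genes of cytotoxic lymphocytes led the list: Gzma had 5868 and 13787 in small intestine and 33.3 and 41.3 in colon, and Gzmb 2189 and 3336 in small intestine and 8.3 and 11.7 in colon. Both colon arrays were under the floor, with differences of at least 91.5-fold and 34.1-fold. The chemokine gene Ccl5 had 2771 and 3654 in small intestine and 261 and 106 in colon. Cd7, a surface protein of intraepithelial lymphocytes, Cd3g and Cd3d, subunits of the T cell receptor complex, and Nkg7, a granule protein, were lower, with mean differences of -3.36 ± 0.32, -3.09 ± 0.30, -2.95 ± 0.40 and -2.77 ± 0.29. Cd8a, a co-receptor gene, had 181 and 106 in colon and 128 and 173 in small intestine and overlapped (adjusted p = 0.878), as did Ctla4, an inhibitory receptor, at 72.6 and 6.25 in colon and 61.8 and 69.1 in small intestine.

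The chemokine that guides lymphocytes to the small intestine and its receptor were both lower in colon. Ccl25 had 13488 and 16189 in small intestine and 78.0 and 131 in colon (mean -7.19 ± 0.19, limma adjusted p = 2.75e-05), and its receptor Ccr9 427 and 327 in small intestine and 56.4 and 15.3 in colon (mean -2.54 ± 0.26, adjusted p = 0.00236). Neither overlapped between tissues. Ccl28, a mucosal chemokine, had 5516 and 5296 in colon and 1656 and 3313 in small intestine, higher in both colon arrays (mean 1.21 ± 0.30, adjusted p = 0.0375). Gpr15, the receptor that guides T cells to the colon, was under the floor in all 4 arrays, at 2.2 to 12.5. Over 26 chemokines, 3 were at least 2-fold higher in colon (Cxcl5, Cxcl12 and Cxcl13) and 5 lower (Ccl25, Ccl5, Cxcl9, Cxcl10 and Cxcl11), and limma called 4 and 8. Cxcl9, which attracts activated T cells, had 275 and 738 in small intestine and 29.5 and 10.3 in colon. The inflammatory chemokines Ccl2, Ccl3 and Ccl7 lay under or near the floor in all 4 arrays, at no more than 70.2.

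Antigen presentation and interferon response genes were also lower in colon. Of 10 MHC class II genes, 7 were at least 2-fold lower in both pairs and called by limma, with a median of -2.03. Cd74, the invariant chain, had 24341 and 22155 in small intestine and 5849 and 2349 in colon, and H2-Ab1, a class II chain, 7871 and 8606 in small intestine and 1510 and 917 in colon. H2-DMa, which loads peptides, had 2688 and 2349 in small intestine and 319 and 242 in colon. The tissues did not overlap for these genes, with means of -2.65 ± 0.32, -2.81 ± 0.32 and -3.18 ± 0.27. Ciita, the regulator of the whole family, was lower, with a mean difference of -1.86 ± 0.23, whereas H2-Oa and H2-Ob, known from B cells, had 0.02 and 0.53 and did not pass. Of 20 interferon response genes, 9 were lower, 0 higher, and limma called 10 lower. Oas3, a sensor of double-stranded RNA, had 646 and 903 in small intestine and 74.8 and 161 in colon, and the GTPase gene Igtp 1754 and 6956 in small intestine and 544 and 908 in colon, with means of -2.80 ± 0.27 and -2.31 ± 0.29. Rsad2 and Bst2, by contrast, had mean differences of -0.25 and -0.23 and did not pass (adjusted p = 0.353 and 0.637).

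The remaining immune lists had few members past 2-fold. Of 18 genes of B and plasma cells, 0 were higher and 0 lower by 2-fold in both pairs, and limma called 1 lower: Jchain, the joining chain of secreted antibodies, with 12702 and 9308 in colon and 18848 and 20437 in small intestine (mean -0.85 ± 0.21, adjusted p = 0.0382), named after its values were seen. The B cell genes Cd79b and Cxcr5 had mean differences of 0.05 and 0.09. Lymphoid follicles and M cells gave 1 of 11 higher, beside 7.04% over all genes: Cxcl13, with 798 and 701 in colon and 362 and 233 in small intestine. Of 19 macrophage and dendritic cell genes, 2 were higher in colon and 0 lower, beside 7.04% and 4.92% over all genes. These were Cd14, a co-receptor for endotoxin, at 1264 and 2624 in colon and 517 and 661 in small intestine, and Folr2, a folate receptor of resident macrophages, at 174 and 233 in colon and 57.9 and 70.8 in small intestine. Both separated the tissues in every array (limma adjusted p = 0.00472 and 0.0057), but Adgre1 and Csf1r, broad macrophage genes, had means of 0.42 and 0.35 and did not pass. S100a8 and S100a9, neutrophil proteins that squamous epithelium also makes, and Cma1, a mast cell protease, were higher in colon by 2.46 ± 0.42, 1.64 ± 0.27 and 1.36 ± 0.25. They make 3 of 15 genes of mast cells, eosinophils and neutrophils, beside 7.04% over all genes. In the same list limma called Mmp9 lower, with a mean difference of -1.23 ± 0.32 (adjusted p = 0.0443). Mcpt1 and Mcpt2 had mean differences of -0.57 and -1.17 and did not pass (adjusted p = 0.715 and 0.21). The high-affinity IgE receptor genes Fcer1a and Ms4a2 and the list members Mcpt4 and Tpsb2 were under the floor in all 4 arrays.

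Connective tissue and muscle genes were higher in colon. Of 27 fibroblast and matrix genes, 17 were at least 2-fold higher in both pairs and 0 lower, where 7.04% of all genes were higher, and limma called 20 higher, with a median of 1.26. Postn, a matrix protein of fibroblasts, had 10551 and 10096 in colon and 1891 and 1739 in small intestine, and Fn1, fibronectin, 7826 and 7750 in colon and 2316 and 1230 in small intestine. Timp3, an inhibitor of matrix proteases, had 2906 and 2725 in colon and 761 and 489.8 in small intestine. All colon arrays exceeded all small-intestinal arrays for these genes, with means of 2.51 ± 0.24, 2.21 ± 0.25 and 2.20 ± 0.19 (limma adjusted p = 0.00175, 0.00339 and 0.00132). Cd34, the lumican gene Lum and Pi16 were higher by 2.26 ± 0.31, 1.71 ± 0.20 and 1.88 ± 0.27. Pdgfrb, a receptor of pericytes, had 586 and 344 in colon and 665 and 227 in small intestine, where WT small intestine was the highest array.

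Of 20 smooth muscle genes, 8 were higher in colon by 2-fold in both pairs, 0 lower, and limma called 10 higher, with a median of 1.11. Summed over the list, the signals were 197520 and 179080 in colon and 95625 and 104170 in small intestine. The intermediate filament gene Des had 10477 and 9044 in colon and 3736 and 2376 in small intestine, and Synm 7448 and 5380 in colon and 2780 and 1405 in small intestine, with means of 1.71 ± 0.35 and 1.68 ± 0.27. Ppp1r14a, an inhibitor of myosin phosphatase, was higher by 1.97 ± 0.36. Cnn1, calponin, was higher without overlap, at 12141 and 13125 in colon and 3035 and 4538 in small intestine, but missed the test (adjusted p = 0.0624), and Mylk, the myosin light chain kinase, overlapped at 14549 and 12645 in colon and 12279 and 14168 in small intestine. Matrix and muscle genes were higher in the same arrays, and the part of the amount of muscle wall in the matrix difference was not tested. Genes of enteric neurons and glia showed 2 of 23 higher and 1 lower, near the shares of 7.04% and 4.92% over all genes, and limma called 9 higher, beside 12.9%. Ano1, the chloride channel of the pacemaker cells of the gut, had 5385 and 6803 in colon and 262 and 151 in small intestine (mean 4.93 ± 0.28, limma adjusted p = 0.000267), Penk, an enkephalin precursor, 764 and 814 in colon and 248 and 215 in small intestine, and Gal, galanin, 192 and 154 in colon and 440.1 and 386 in small intestine, lower in colon, with a mean difference of -1.26 ± 0.31. The glial genes Sox10 and Gfap had means of -0.05 and 0.03.

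Of 22 genes for signals that mesenchymal cells send to the crypt, 3 were at least 2-fold higher in colon, beside 7.04% over all genes, and limma called 6 higher, beside 12.9%. Sfrp2 and Frzb, secreted inhibitors that bind Wnt proteins, were under the floor in both small-intestinal arrays. Sfrp2 had 523 and 246 in colon and 48.4 and 27.2 in small intestine, and Frzb 255 and 231 in colon and 36.7 and 31.4 in small intestine, with means of 2.48 ± 0.31 and 1.92 ± 0.23. Chrdl1, an antagonist of BMP, was higher by 1.84 ± 0.27. Grem1, another BMP antagonist, had 1557 and 482 in colon and 1535 and 548 in small intestine, a difference of -0.08 ± 0.19 that did not pass (adjusted p = 0.813). Endothelial genes gave 0 of 17 higher by 2-fold in both pairs and 0 lower. Limma called 2 of them higher, Lyve1, of lymph vessels, by 1.45 ± 0.33 and Pecam1 by 1.26 ± 0.28, named after their values were seen.

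**Figure D4:**
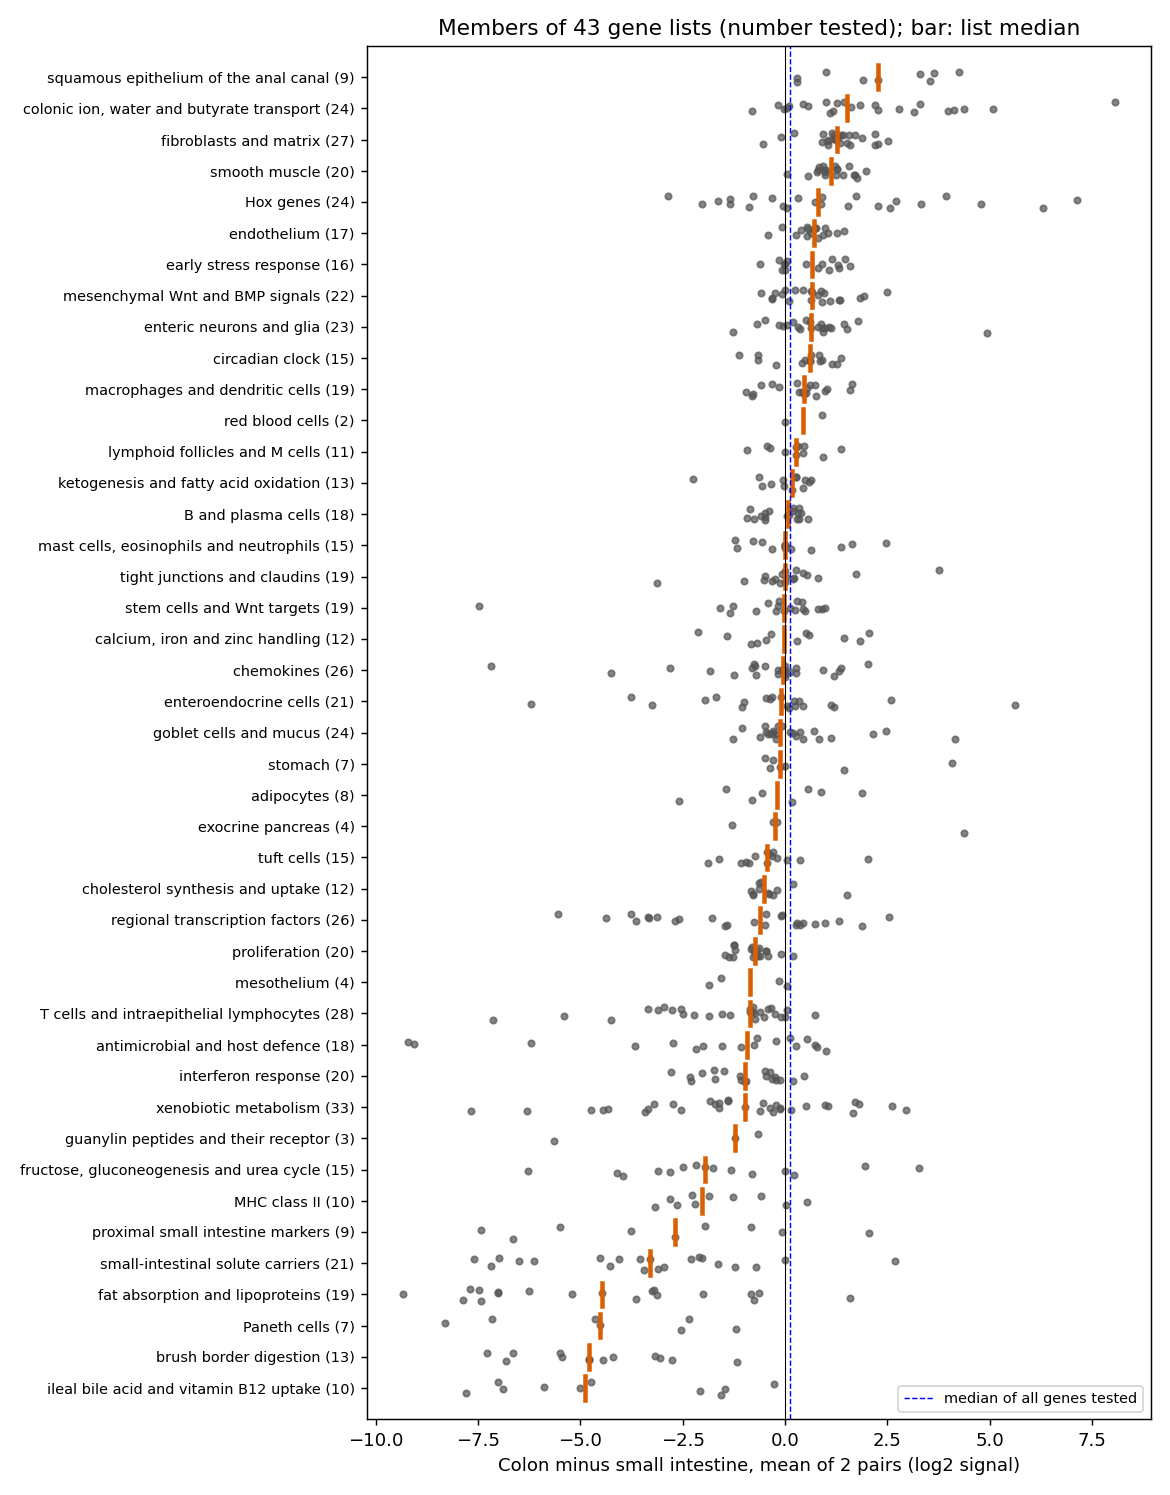
Colon minus small intestine difference (log2 signal, mean of both pairs) of every measured member of 43 gene lists, 1 point per gene, with the list median as a bar and the median of all genes tested (0.11) as a dashed line. Absorption, brush border and Paneth cell lists lie far to the left, with medians down to -4.88, and squamous, colonic transport, matrix and muscle lists to the right, with medians up to 2.27.

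Tissue from outside the mucosa or from neighbouring regions was checked by marker lists. Genes of the squamous epithelium of the anal canal were higher in colon for 6 of 9 measured members, with summed signals of 5302 and 4819 in colon and 392 and 508 in small intestine. The 6 were the keratin genes Krt6a, Krt13, Krt14, Krt4 and Krt5 and the loricrin gene Lor. Krt13, a keratin of moist squamous surfaces, had 625 and 1009 in colon and 3.29 and 6.45 in small intestine, and Krt14, a keratin of basal squamous cells, 1038 and 540.1 in colon and 20.6 and 5.96 in small intestine. Both were under the floor in small intestine. Trp63, the factor that defines basal squamous cells, had 94.7 and 64.1 in colon and 13.2 and 43.4 in small intestine and did not pass (adjusted p = 0.351). Tgm3, Anxa8 and S100a8 were higher in the same arrays as these keratins, and the part of squamous tissue in their difference was not tested.

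Of 4 exocrine pancreas genes, 1 was higher in colon: Cela1, an elastase, with 15733 and 16342 in colon and 764 and 789 in small intestine (mean 4.37 ± 0.13, limma adjusted p = 3.77e-05). The pancreatic genes Prss2, Cel and Ctrb1 did not pass 302 in any of the 4 arrays. Sycn, which is also known from pancreatic granules, was higher in the same arrays as Cela1, where Prss2 had 105 and 20.7, Cel 28.9 and 15.2 and Ctrb1 74.9 and 6.37. Of 7 stomach genes, 2 were higher in colon, Ctse, an aspartic protease, at 2732 and 4618 in colon and 187 and 236 in small intestine, and Gkn3, a gastrokine, at 332 and 227 in colon and 103 and 98.5 in small intestine, while the acid pump gene Atp4a stayed between 33.9 and 106.6 in all 4 arrays. Among adipocyte genes, only Pparg, also listed with the regional factors, was higher in colon, and only Cidec, a protein of lipid droplets, was lower. Cidec had 569.9 and 688 in small intestine and 168 and 55.5 in colon (mean -2.59 ± 0.59). The other measured adipocyte genes, such as Fabp4, Lpl and Car3, met neither the 2-fold rule in both pairs nor the test. Adipoq, adiponectin, had 1001 and 237 in colon and 1235 and 1402 in small intestine, lowest in ACKR2-/- colon. Of 4 mesothelial genes, 2, Upk1b and Upk3b, were lower in colon, with mean differences of -1.56 ± 0.26 and -1.86 ± 0.33. Red blood cell genes stayed at or below 141.1 in all 4 arrays.

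Of 33 genes of xenobiotic metabolism, 15 were lower in colon, 4 higher, and limma called 11 lower and 4 higher. Cyp3a11, the main drug-oxidising cytochrome of the gut, had 10920 and 15489 in small intestine and 18.0 and 2.2 in colon, and its relative Cyp3a25 5536 and 4575 in small intestine and 2.07 and 1.06 in colon. Both colon arrays were under the floor for both genes, at least 170.3-fold and 71.3-fold lower. Signal of these paralogs may be shared. Cyp2b10 and the exporter gene Abcc2 were lower, with mean differences of -4.74 ± 0.35 and -4.45 ± 0.47. Higher in colon were Sult1a1, a sulfotransferase, at 4321 and 3751 in colon and 728 and 374 in small intestine (mean 2.95 ± 0.41, limma adjusted p = 0.00592), the glutathione transferase genes Gstm1 and Gsta4, by 1.80 ± 0.24 and 1.71 ± 0.20, and Adh1, an alcohol dehydrogenase, which missed the test (adjusted p = 0.0516).

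Fructose, gluconeogenesis and urea cycle genes were lower in colon for 10 of 15 and higher for 2, with a median of -1.95, and limma called the same numbers. The arginases went opposite ways. Arg2, the mitochondrial form, had 6897 and 7616 in small intestine and 87.3 and 98.8 in colon, and Arg1, the cytosolic form, 543 and 715 in colon and 22.5 and 1.46 in small intestine. Neither overlapped between tissues, with means of -6.29 ± 0.25 and 3.28 ± 0.22 (limma adjusted p = 8.95e-05 and 0.000544). Otc and Cps1, which make citrulline in enterocytes, were lower, with mean differences of -4.11 ± 0.51 and -3.96 ± 0.23, as were the fructose enzymes Khk and Tkfc, with -2.82 ± 0.31 and -3.12 ± 0.29. Glul, glutamine synthetase, was higher in colon, at 5700 and 8258 in colon and 1412 and 2198 in small intestine (mean 1.96 ± 0.19).

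Among genes of calcium, iron and zinc handling, 2 of 12 were higher in colon and 2 lower, beside 7.04% and 4.92% over all genes. Heph, the ferroxidase that works with ferroportin, had 7397 and 11849 in small intestine and 3281 and 3694 in colon (mean -1.43 ± 0.30), opposite to Slc40a1. S100g, the calcium carrier calbindin, had 948 and 2304 in colon and 415 and 414 in small intestine and did not pass (adjusted p = 0.159). Of 13 genes of ketogenesis and fatty acid oxidation, 1 was at least 2-fold lower, Angptl4, an inhibitor of lipoprotein lipase, with a mean difference of -2.26 ± 0.55. Limma called 2 lower and 1 higher in that list, beside shares of 8.38% and 12.9% over all genes. Of 12 cholesterol genes, 1, Dhcr7, was higher by 1.5 ± 0.23, while limma called 4 others lower, each by a mean of less than 1. Clock genes showed 2 of 15 higher, beside 7.04% over all genes: Dbp by 1.28 ± 0.22 and Ciart without passing (adjusted p = 0.0513). Limma also called Per3, Per1, Nr1d2 and Tef higher, by 1.14 ± 0.24, 0.83 ± 0.21, 0.61 ± 0.15 and 0.60 ± 0.16, named after their values were seen. Arntl had 609.7 and 397 in colon and 623 and 525 in small intestine. Early stress genes showed 4 of 16 higher, beside 7.04% over all genes: Hspa1b, Hspa1a, Klf2 and Dusp1, by 1.58 ± 0.14, 1.15 ± 0.21, 1.31 ± 0.23 and 1.29 ± 0.26. Hspa1a and Hspa1b are near-identical copies. Fos had 7747 and 8177 in colon and 7289 and 8685 in small intestine. The time of day and the handling of the tissues were not given, and their part in the clock and stress values was not tested.

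The pairs of genotypes gave unlike differences for a small number of genes. The gap between the pairs was at least 1 on the log2 scale for 820 genes (5.85%), at least 2 for 58 and at least 4 for 2, Car1 and Ang4. Among the 58 genes, the array farthest from the others was ACKR2-/- small intestine in 24 (7 high and 17 low), ACKR2-/- colon in 14 (5 and 9), WT small intestine in 12 (10 and 2) and WT colon in 8 (4 and 4). Cyp2c55, a cytochrome of the colon, had 13211 and 8671 in colon and 9970 and 1147 in small intestine, so WT small intestine stood near colon. Cyp1a1, which is induced by dietary and bacterial ligands of the aryl hydrocarbon receptor, had 603 and 60.7 in small intestine and 51.1 and 63.4 in colon, high in WT small intestine alone. It was singled out after its values were seen. With 1 array per group such a gap cannot be told apart from a difference between pools.

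Of the 7 genes at least 2-fold apart in opposite directions, Retnlb and Mal had the widest gaps. Retnlb, an antimicrobial protein of goblet cells, had 5617 and 9.86 in colon and 1912 and 254 in small intestine, high in WT colon and under the floor in ACKR2-/- colon. Mal, a membrane protein of apical transport, had 302 and 795 in colon and 1092 and 267 in small intestine, highest in WT small intestine. The pair differences were 1.56 and -1.99 for Retnlb and -1.86 and 1.58 for Mal. Gabrp, Ces1g, Anks3, Smyd1 and Lrg1, the other 5, had signals of no more than 309.6 in all 4 arrays.

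The regional difference was set against that between colon tumours and ileal tumours. In ileal and colon tumours of ApcMin/+ and ACKR2-/-ApcMin/+ mice, 389 genes were at least 2-fold higher in colon tumours in both pairs (2.77%) and 691 lower (4.93%). Of the 988 genes higher in non-tumour colon, 208 (21.1%) were also at least 2-fold higher in colon tumours in both pairs and 7 lower. Of the 690 genes lower, 382 (55.4%) were also lower and 5 higher. The regional difference itself changed with tumour status for 301 of 14027 genes by the limma interaction (2.15%), more positive in non-tumour tissue for 202 and more negative for 99, and 2666 genes had an unadjusted p under 0.05. Leaving out any of the 4 non-tumour arrays left 0 such calls in limma. Tumours and non-tumour tissue came from different mice, and the labelled segment differed too.

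Among absorptive genes, Apoa1 had 30842 and 47537 in ileal and 5.06 and 140.2 in colon tumours, and Fabp6 26097 and 33401 in ileal and 117 and 90.4 in colon tumours. Their interactions did not pass (adjusted p = 0.21 and 0.104). Hoxb13 had 1866 and 2553 in colon and 1.12 and 5.81 in ileal tumours, a smaller difference than in non-tumour tissue (interaction 2.04 ± 0.31, adjusted p = 0.0367). The difference of Reg3b, Reg3g, Itln1 and Mmp7 was smaller in tumours. For the defensin gene Defa39 the interaction of -1.19 ± 0.49 had the same sign but did not pass (limma adjusted p = 0.263), which does not show that it was unchanged. Reg3b had 23388 and 17624 in colon tumours and 27283 and 37694 in ileal tumours, against 53.5 and 39.4 in non-tumour colon and 38215 and 37497 in non-tumour small intestine. The interactions were -8.55 ± 0.32 for Reg3b, -8.16 ± 0.32 for Reg3g, -6.33 ± 0.38 for Itln1 and -7.63 ± 0.27 for Mmp7 (limma adjusted p = 0.000626, 0.000626, 0.00425 and 0.000626). Atp12a and Tgm3 had lower signals in colon tumours than in non-tumour colon, at 1199 and 2073 for Atp12a and at 974 and 1360 for Tgm3, with interactions of 3.44 ± 0.36 and 4.44 ± 0.48 (adjusted p = 0.0182 and 0.0182).

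A few genes turned their regional direction in tumours in both pairs, and 6 are named by the size of the smallest of their 4 differences. Plet1, a surface protein of epithelial progenitors, had 2518 and 1668 in non-tumour small intestine and 191 and 107 in colon, but 7435 and 6210 in colon and 417 and 484 in ileal tumours. Saa3, an acute-phase protein, had 402 and 551 in non-tumour small intestine and 76.5 and 141 in colon, but 4250 and 3071 in colon and 1026 and 315 in ileal tumours. Both were lower in colon than in small intestine without tumours and higher in tumours, with no overlap in either case. Mmp10, a matrix protease, and 1810065E05Rik turned the same way. Prkcb, a protein kinase C, and Gkn3 turned the other way: Prkcb had 899 and 1362 in non-tumour colon and 207 and 129.9 in small intestine, and 151 and 138 in colon and 657 and 719 in ileal tumours. The interaction was -7.76 ± 0.27 for Plet1, -4.85 ± 0.46 for Saa3 and 5.004 ± 0.49 for Prkcb (limma adjusted p = 0.000626, 0.0143 and 0.0152). Because the genes were chosen by these same differences, the interaction is no separate support.

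**Figure D5:**
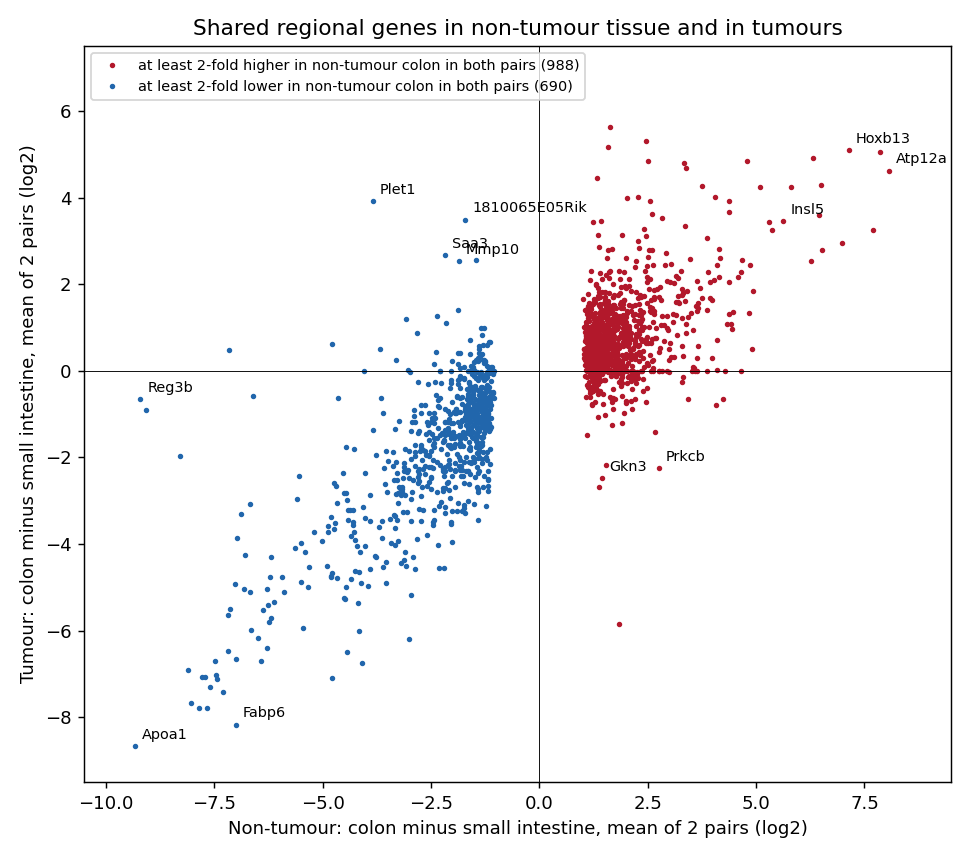
Colon minus small intestine difference (log2 signal, mean of both pairs) without tumours (x axis) and in tumours (y axis) for the 988 genes higher and the 690 genes lower in non-tumour colon. Apoa1 and Fabp6 lie near the diagonal at the lower left, Reg3b lies near 0 in tumours, and Plet1, Saa3, Mmp10, 1810065E05Rik, Prkcb and Gkn3 lie on the opposite side of 0 in tumours.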

How the data were processed

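RNA of 8 pools, extracted with Trizol and RNeasy columns and labelled for Affymetrix arrays per the labels' protocols, gave 1 array each. The deposited intensities (MAS5 signals, with Partek also named, per the submitters' processing notes, no versions given) were linear, with a trimmed mean of 500 on each array. How MAS5 scaling and background correction move low signals was not examined.

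From these, 34945 of 45101 probe sets with 1 gene were kept (932 had several, 9160 none, and 64 were controls), covering 18193 genes. Signals under the floor (64.1) were raised to it, log2 was taken, the probe set with the highest mean stood for its gene, and 14027 genes above the floor in at least 2 arrays were tested. The limma model (limma 3.58.1, R 4.3.3) had 4 tissue by tumour-status intercepts and 1 ACKR2 effect per tumour status, 2 residual and 4.12 prior degrees of freedom, a trend, and two-sided tests with Benjamini-Hochberg adjustment. The script was tested on simulated data. With 1 array per group, p-values measure the spread between these arrays.

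The members, the 43 lists and the named genes were chosen with earlier results of these data known. Named were the top 15 genes per direction, up to 10 opposite genes, up to 6 members per list and direction, the 3 least different members of a list, and set markers. Mep1a, Treh, Fabp2, Scarb1, Abcg5, Abcg8, Scnn1a, Slc16a1, Kcne3, Nr3c2, Hnf4g, Hoxa7, Hoxa11, Hoxa13, Hoxb5, Hoxb9, Hoxc4, Hoxd8, Hoxd9, Zg16, Nos2, Chgb, Nkg7, Cd8a, Ccl2, Ms4a2, Mmp9, Mcpt1, Mcpt2, Atp4a, Jchain, Csf1r, Pi16, Sox10, Lyve1, Pecam1, Adipoq, Per1, Per3, Nr1d2, Tef and Cyp1a1 were named outside this rule, after their values were seen. Promoter windows were from RefSeq. Alternatives were other floors, filters, scalings, probe set rules and fits, a threshold of 1.5, and leaving out arrays.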

Additional observations from a re-analysis of the deposited data

Results flagged for a closer look

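Of 14027 genes tested, 7 that were higher and 5 that were lower in non-tumour colon turned by at least 2-fold in both tumour pairs. The 6 ranked first by their smallest difference over the pairs are given here, with the limma interaction. The values, non-tumour minus tumour on the log2 scale, were -7.76 for Plet1 (adjusted p = 0.000626), -5.21 for 1810065E05Rik (adjusted p = 0.0143), -4.85 for Saa3 (adjusted p = 0.0143), -4.39 for Mmp10 (adjusted p = 0.0291), 5.004 for Prkcb (adjusted p = 0.0152) and 3.93 for Gkn3 (adjusted p = 0.0182). Turning in both pairs on both sides was the rule by which these genes were chosen. Their interactions come from the same arrays and are therefore no separate support.

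The regional difference of 7 genes had opposite signs in the WT and the ACKR2-/- pair. The WT difference minus the ACKR2-/- difference was 3.54 for Retnlb, 2.49 for Gabrp, 2.17 for Smyd1, -3.43 for Mal, -2.78 for Lrg1, -2.71 for Anks3 and -2.54 for Ces1g. With 1 array per group these differences were not tested.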

How the results depend on the processing

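No paired analysis was possible because each group has 1 array and the labels carry no replicate numbers to pair by, beyond the comparison of tissues within each genotype that the results already use. Genes called higher and lower by limma numbered 161 and 101 with no filter and 23 and 45 with the 4 non-tumour arrays alone. Leaving out each array gave 0 calls in both directions in limma, with 2295 to 2745 genes at an unadjusted p under 0.05 and 1 residual degree of freedom. Genes at least 2-fold higher in both pairs numbered 1540 with no floor, 656 with the filter on all 8 arrays and 409 at 1.5 on the log2 scale, and 1348 to 1809 without 1 array, when they rest on the remaining pair. Those lower numbered 1159 with no floor, 410 at 1.5, and 915 to 1038 without 1 array. Genes opposite in the pairs numbered 465 with no floor, 41 and 1 with floors at the 25th and 60th percentile, 2 with the filter on all 8 arrays, 4 with the mean of probe sets and 2 at 1.5. Interaction calls numbered 24 with no filter, 191 with a filter on the non-tumour arrays, 160 with the mean of probe sets, 197 with no trend and 0 without 1 array. The alternatives for opposite genes and interaction calls were chosen after seeing the data. All other counts stayed within 1.5 times. Of 196 named genes with a call, 156 lost it with the non-tumour arrays alone, 147 with no filter and 196 without any 1 array. Of the named genes with a call, Hoxa5 alone turned, to 0.42 with the mean of all probe sets; the cause was not tested. Named genes without a call, such as Anks3, could change sign near 0.

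Each group was 1 array of 1 pool, so nothing here measures variation between animals, and p-values rest on 2 residual degrees of freedom shared with the tumour arrays. Signals near the floor carry little information, and a difference from it is a lower limit. The segment of small intestine, the part of colon and the depth of tissue sampled were not labelled.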
